A study of Mus musculus with 12 samples.

Results

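A set of 3 mouse lymph node libraries held abundant transcripts of salivary glands and was set against the other libraries of the same experiment. They were chosen by 1 rule: Bpifa2 above 100 CPM (counts scaled to the library total, that is, reads of the gene per 1000000 reads counted in the library). T NDE 3, NT NC 3 and NT NC 2 passed it, 3 of 12 libraries, and the other 9 did not; the number after a group is its replicate. The lowest library above the threshold was NT NC 2 at 997 CPM, and the highest below it was T NC 3 at 38.1 CPM. Because Bpifa2 itself made the split, every comparison of the 3 libraries with the other 9 is given as a description, with no test.

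The experiment crossed a tongue tumour with nerve inhibition, with 3 libraries in each of 4 groups. T mice carried B16F10, a melanoma line, inoculated into the tongue; NT mice were left without tumour cells. In NDE mice the nociceptive (pain-sensing) nerves supplying the tumour-draining lymph node had been inhibited, and in NC mice they had not. The sources used here give no agent, strain, age, time after inoculation or number of mice per library, although the repetitions are called biologically independent. The 3 libraries thus came from tumour-bearing mice with inhibited nerves (1 library) and from tumour-free mice with intact nerves (2 libraries), and the T NC and NT NDE groups held none. RNA was total RNA read as mRNA libraries, with 16862953 to 24467873 counts per library. Lymph node genes were present in each of the 3: Ptprc, the pan-leukocyte phosphatase, lay between 1581 and 1994 CPM, and the B cell gene Cd79a between 457 and 617 CPM. The male gene Ddx3y was at 156 to 183 CPM in the 12 libraries.

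Saliva is made by acinar cells, which secrete water and protein, and by ducts, which change its ions and add proteins of their own. In the mouse the parotid gland is serous and is known for amylase, parotid secretory protein (Bpifa2) and proline-rich proteins. The submandibular gland has granular ducts that store kallikreins and epidermal growth factor, most of all in males, and the sublingual gland is mainly mucous. These glands lie beside lymph nodes of the neck. Bulk RNA cannot tell apart fewer cells of a type and less RNA per cell, so each level below is a share of the library's RNA.

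Both genes that mark the 3 libraries, Bpifa2 and the salivary amylase gene Amy1, have start sites in RefSeq on GRCm38.p6, and the 250 bases before each are printed as the sequence next to the most abundant transcripts. Capitals mark TATAA, a core of the TATA box, on the gene's strand; the motif was picked after the sequences had been read. Bpifa2 starts on the plus strand (window chr2:154008026-154008275), and Amy1 has an upstream start (chr3:113577751-113578000) and a downstream start (chr3:113574763-113575012), both on the minus strand.
Bpifa2: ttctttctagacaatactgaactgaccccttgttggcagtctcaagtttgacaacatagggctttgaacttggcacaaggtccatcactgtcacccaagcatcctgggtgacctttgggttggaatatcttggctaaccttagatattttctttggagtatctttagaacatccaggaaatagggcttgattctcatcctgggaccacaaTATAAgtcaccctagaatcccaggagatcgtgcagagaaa
Amy1 upstream start: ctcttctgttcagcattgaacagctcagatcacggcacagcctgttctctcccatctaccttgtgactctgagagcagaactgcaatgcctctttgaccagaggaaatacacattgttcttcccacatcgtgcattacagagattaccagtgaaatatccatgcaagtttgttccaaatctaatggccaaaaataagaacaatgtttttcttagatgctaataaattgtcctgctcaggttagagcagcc
Amy1 downstream start: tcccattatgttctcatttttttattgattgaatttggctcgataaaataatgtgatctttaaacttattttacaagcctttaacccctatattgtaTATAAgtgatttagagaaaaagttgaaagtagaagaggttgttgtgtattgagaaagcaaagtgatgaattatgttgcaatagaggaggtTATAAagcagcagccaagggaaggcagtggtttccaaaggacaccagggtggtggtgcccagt
Bpifa2 held the motif once, beginning 40 bases before its start. At the downstream Amy1 start it occurred at 153 and 63 bases before the start, and the upstream start had none on the gene's strand. Counts per gene cannot say from which start the Amy1 reads came. Among the genes that follow Bpifa2 in all 3 libraries, as counted below, 69 of 97 matched the RefSeq table with 80 windows of 300 bases (250 before and 50 after the start), and 30 of these windows (37.5%) held TATAA on the gene's strand. Over all 32851 windows of the table the share was 17.5%. A second motif, CAGCTG, was also counted and went the other way, with 10 of the 80 windows (12.5%) against 16.3% of all windows. These are shares of letters, not of sites in use, and several genes have more than 1 window.

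Bpifa2 (chr2:154008265-154016079 in mm10) encodes parotid secretory protein, a lipid-binding protein of saliva. T NDE 3 held 25420 CPM, NT NC 3 held 19567 CPM and NT NC 2 held 997 CPM. Elsewhere it was at 10.5 CPM in NT NC 1, 9.40, 22.6 and 38.1 CPM in T NC 1, 2 and 3, 8.66, 6.66 and 12.6 CPM in NT NDE 1, 2 and 3, and 15.9 and 26.1 CPM in T NDE 1 and 2. The transcript was therefore read in every library, and NT NC held both a low library and high ones. Amy1 (chr3:113555710-113606699), whose enzyme splits starch, stood at 12766, 7469 and 370 CPM in the same order of the 3 libraries. It lay between 4.60 and 17.8 CPM in the other 9. Per kilobase of exon Bpifa2 was the most abundant of the genes described here, at 12653 CPM per kb in T NDE 3 against 3705 CPM per kb for Amy1.

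**Figure D1:**
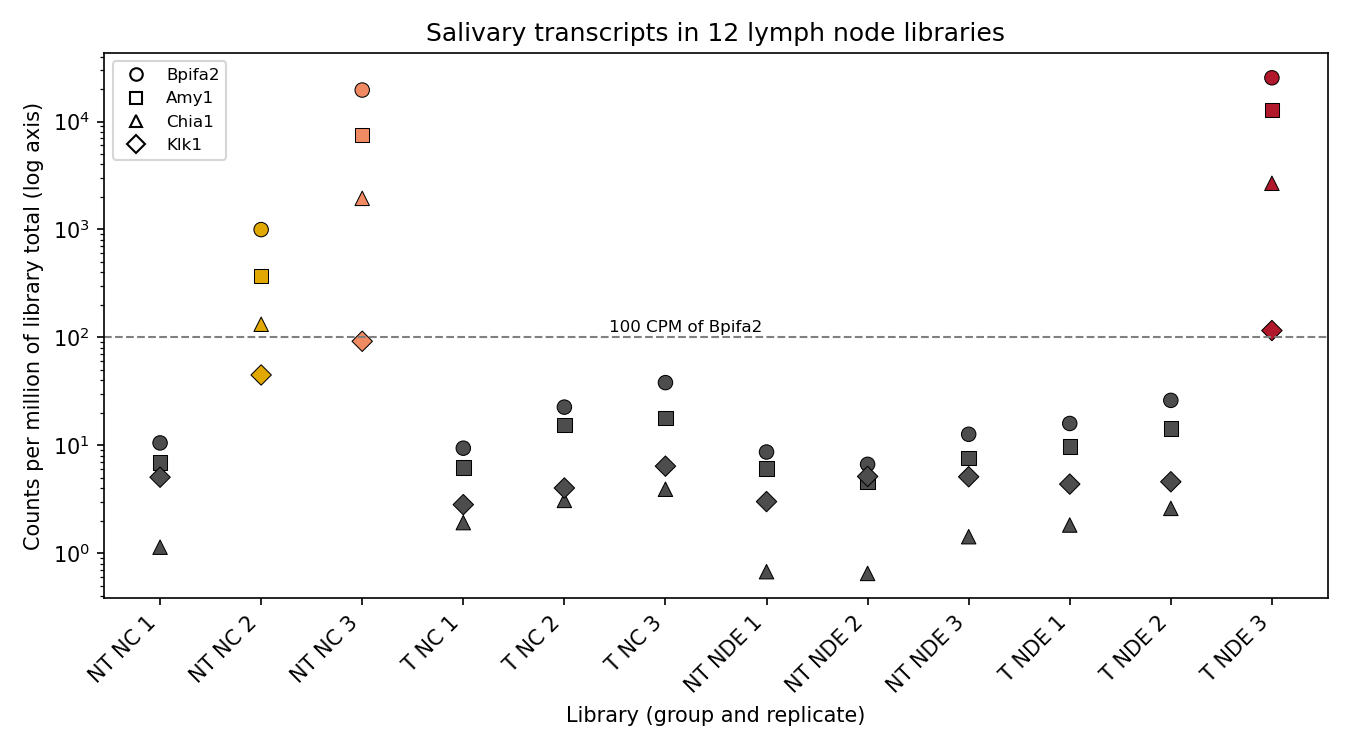
CPM of the library total (log axis) of Bpifa2, Amy1, Chia1 and Klk1 in each of the 12 libraries, 1 point per gene and library; the dashed line is the threshold of 100 CPM for Bpifa2. T NDE 3, NT NC 3 and NT NC 2 stand above the line for Bpifa2, and the other 9 lie at or below 38.1 CPM.

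A gene was said to follow Bpifa2 when each high library lay above 2 times the highest of the other 9 and at least 1 of the 3 held 10 reads. By that rule 97 genes followed in all 3 libraries, 0.537% of the 18055 genes with enough reads, and 271 followed in the 2 libraries richest in Bpifa2 (1.5%). All 97 were among the 271. The 10 reads could lie in any 1 of the 3 libraries, so a gene at 0 in the other 9 could pass in NT NC 2 on few reads. Prss8, for example, had 2 reads there. Of the 97 genes, 90 kept the order of Bpifa2 over the 3 libraries, 29 had 0 reads in all of the other 9 and 84 were protein coding. In the opposite direction, 2 genes lay below 1/2 of the lowest of the other 9 in all 3 libraries, 4931422A03Rik and Gm6212, at 10 reads or fewer. The 97 genes held an excess over the median of the other 9 of 5.07% of all counts in T NDE 3, 3.59% in NT NC 3 and 0.192% in NT NC 2. Their whole share in the other 9 was between 0.00258% and 0.00861%. Of the excess of the 271 genes, Bpifa2 and Amy1 made up 73.5%, 73.7% and 67.9%.

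The secreted proteins of saliva came first. Chia1, an acidic chitinase, stood at 2677, 1941 and 132 CPM in T NDE 3, NT NC 3 and NT NC 2, against 0.650 to 3.91 CPM elsewhere. Car6, the secreted carbonic anhydrase, stood at 1667, 1717 and 52.6 CPM, against 0.519 to 3.20 CPM. Car6, Scgb1b27, Scgb2b27 and BC107364 were the genes among those that follow in all 3 libraries that were higher in NT NC 3 than in T NDE 3. Dnase1, the secreted endonuclease, reached 1854, 1181 and 59.4 CPM, against at most 3.14 CPM. The protein-coding gene 2310057J18Rik, of unknown role here, reached 1997, 1221 and 78.5 CPM, against at most 2.85 CPM. These genes did not overlap between the 3 libraries and the other 9, which the rule itself requires.

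Further saliva proteins lay lower. Pip, prolactin-induced protein, stood at 627, 396 and 19.1 CPM, with at most 0.771 CPM in the other 9, and the cystatin Cst10 at 592, 346 and 22.5 CPM, with at most 0.816 CPM. Smr3a, named for the submaxillary gland, stood at 378, 271 and 15.6 CPM, and Crisp1, a cysteine-rich secretory protein, at 325, 239 and 12.7 CPM. Lpo, the antibacterial lactoperoxidase, stood at 171, 93.7 and 6.08 CPM against 0.674 to 1.16 CPM, and the protease inhibitor Wfdc12 at 78.6, 43.5 and 5.49 CPM. The proline-rich protein genes Prpmp5 (35.6, 15.7 and 1.33 CPM) and Prb1 (19.4, 12.6 and 0.416 CPM) were below 0.1 CPM in each of the other 9. The long non-coding RNA BC037156, which lies on chromosome 5 as Smr3a does, stood at 529, 242 and 21.9 CPM.

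The secretoglobin pair Scgb1b27 and Scgb2b27, subunits of androgen-binding protein, are neighbours on chromosome 7. Scgb1b27 stood at 32.5 CPM in T NDE 3, 44.4 in NT NC 3 and 1.66 in NT NC 2, and Scgb2b27 at 31.5, 42.7 and 1.62 CPM. Both were higher in NT NC 3 than in T NDE 3, the reverse of Bpifa2. Mup5, a lipocalin of the major urinary protein family, went the other way, with 55.4, 13.1 and 0.208 CPM (1186, 266 and 5 reads).

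Genes of the acinar cell's machinery followed as well. Aqp5, the apical water channel of acinar cells, stood at 21.5, 11.9 and 0.832 CPM against at most 0.178 CPM. Bhlha15 (Mist1), a transcription factor of secretory cells that plasma cells also use, was at 40.5, 24.4 and 9.78 CPM against 2.05 to 7.38 CPM, and so followed in the 2 richest libraries. Slc12a2, the basolateral chloride carrier, was at 126, 90.9 and 38.9 CPM against 29.4 to 40.6 CPM. It lay inside the range of the other 9 in NT NC 2. Of the 12 listed genes of acinar secretion, 6 followed in at least the 2 richest libraries and 2, Aqp5 and Pip, in all 3. Chrm3, the muscarinic receptor that drives secretion, did not follow, at 6.21, 3.36 and 2.62 CPM against 1.92 to 2.81 CPM.

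Transcription factors of glandular epithelium were among the 97. Pax9 was at 38.0, 21.6 and 1.96 CPM against at most 0.0541 CPM, and Tfcp2l1, a factor of ducts, at 20.1, 12.1 and 4.37 CPM against at most 0.918 CPM. Elf5, an Ets factor of secretory epithelia, was at 12.04, 4.93 and 0.583 CPM. Sox10, which acts in salivary acinar progenitors as well as in glia and melanocytes, was at 11.9, 6.02 and 0.541 CPM. Barx2, Pitx1, Six2, Tfap2b and Zfp750 followed in all 3 at lower levels, between 1.17 and 8.21 CPM in T NDE 3. Epithelial structure was represented by the keratin Krt18 (19.9, 11 and 1.79 CPM) and by the claudins Cldn3, Cldn8 and Cldn22, of which Cldn3 and Cldn8 were at 0 in the other 9. Cyp2f2, a cytochrome P450 of secretory epithelia, was at 37.5, 19.4 and 7.12 CPM against 0.736 to 3.14 CPM. Ppp1r1b, a phosphatase inhibitor, was at 21.8, 12.7 and 1.08 CPM, the osteocalcin-related gene Bglap3 at 20.9, 9.87 and 0.458 CPM, and the pseudogene Gm5154 at 58.2, 40.8 and 1.58 CPM.

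The gland was then read from marker lists for the parotid, the submandibular and the sublingual gland. The parotid list was the highest. Its 10 genes summed to 4.25% of all counts for T NDE 3, with a 95% Wilson interval from 4.24% to 4.26%. For NT NC 3 the sum was 3.04% (3.03% to 3.05%), and for NT NC 2 it was 0.151% (0.149% to 0.152%). These intervals cover counting error only. In the other 9 the sum lay between 13.2 and 63.6 CPM. Of the 10 genes 8 followed in all 3 libraries: Bpifa2, Amy1, Car6, Dnase1, Prpmp5, Prb1, Lpo and Cst10. Prh1, another proline-rich protein, had 3, 38 and 0 reads and Prp2 had 0, 6 and 0 reads. Both were read most in NT NC 3. The sum rests largely on Bpifa2, which made the split, and on Amy1. Without Bpifa2 the other 9 genes summed to 17106 CPM in T NDE 3, 10837 in NT NC 3 and 512 in NT NC 2, against 6.50 to 25.6 CPM. Without Amy1 as well, 8 genes summed to 4340, 3368 and 142 CPM against 1.82 to 7.71 CPM; these sums were added after the values were seen. By their choice as markers the lists are descriptions of which gland genes were read, not tests of the gland.

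Submandibular genes summed to 139, 111 and 54.2 CPM against 6.42 to 12.7 CPM, and Klk1 made up most of the sum. Smr3a, named for the submaxillary gland, was not in the list. At 378, 271 and 15.6 CPM it lay above the sum in T NDE 3 and NT NC 3 and below it in NT NC 2. The sum thus depends on which genes were listed. Klk1, tissue kallikrein (chr7:44225360-44229618), stood at 116 CPM in T NDE 3, 92.0 in NT NC 3 and 44.8 in NT NC 2, against 2.82 to 6.40 CPM. Smgc, a protein of immature submandibular acini, had 0, 0 and 2 reads, and Ren1 had 0, 0 and 1. Of the granular-duct kallikreins, Klk1b11 had 23, 13 and 8 reads, Klk1b26 11, 13 and 8, and Klk1b9 16, 9 and 0. Klk1b1, Klk1b3, Klk1b4, Klk1b5, Klk1b8, Klk1b16, Klk1b21, Klk1b22 and Klk1b24 had at most 5 reads in any of the 3 libraries. Klk1b27 was at 1.17, 1.04 and 1.04 CPM, inside the 0.459 to 1.33 CPM of the other 9. Egf, epidermal growth factor, was at 15.7, 13.3 and 6.70 CPM against 2.74 to 6.41 CPM, and Prol1 had 54, 38 and 1 reads. Kallikrein genes are near copies of each other, so reads may be divided among them in a way that cannot be checked here.

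Sublingual genes summed to 825, 717 and 107 CPM against 33.0 to 38.4 CPM. The mucins Muc19 and Muc5b, the main products of mucous cells, had at most 1 read in any of the 3 libraries. The sum came from Dcpp1, Dcpp2 and Dcpp3, proteins of demilune cells that the parotid also makes, and from Galnt12, which lay at 31.8, 33.8 and 30.7 CPM against 31.8 to 38.2 CPM in the other 9. Dcpp1 was at 710, 643 and 65.2 CPM, Dcpp3 at 59.7, 28.2 and 8.28 CPM and Dcpp2 at 22.9, 12.2 and 2.41 CPM. The 3 genes lie together on chromosome 17 and resemble each other, and the spans of Dcpp1 and Dcpp2 overlap.

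Duct and simple-epithelium genes summed to 181, 127 and 75.6 CPM against 59.8 to 75.5 CPM. Of the 20 genes, 10 followed in the 2 richest libraries and 4 in all 3: Krt18, Cldn3, Elf5 and Scnn1b, a subunit of the epithelial sodium channel. Krt8 was at 11.1, 6.56 and 0.624 CPM against at most 0.356 CPM, and Krt7 at 6.25, 4.74 and 2.25 CPM against 1.05 to 2.29 CPM. Ascl3 and Foxi1, factors of ionocytes, did not follow. The basal and myoepithelial genes Krt5 (17, 11 and 1 reads) and Krt14 (31, 32 and 5 reads) followed in the 2 richest libraries, while Cnn1, a contractile protein of myoepithelium, had 20, 9 and 5 reads and did not.

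**Figure D2:**
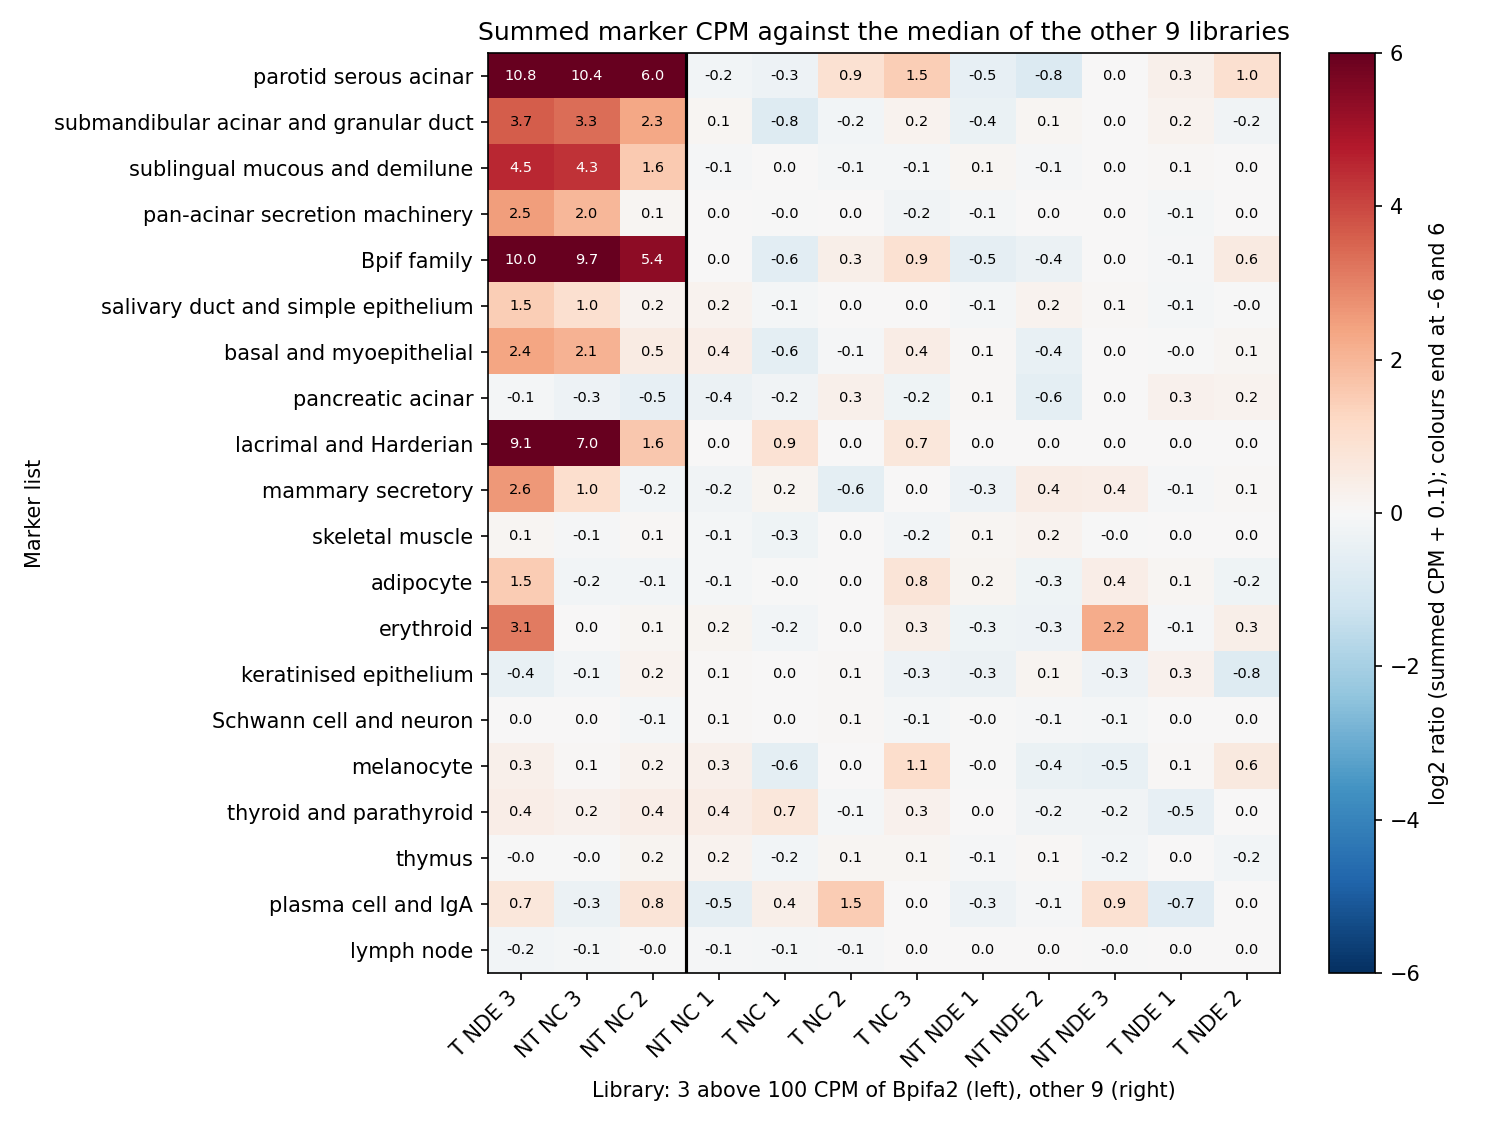
Summed CPM of each marker list in each library as a log2 ratio to the median of the other 9 libraries, with 0.1 CPM added to both; red is higher and blue lower. The parotid row reaches 42526 CPM in T NDE 3, while the adipocyte and erythroid rows are raised in T NDE 3 and not in NT NC 3 or NT NC 2.

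The proportions of most genes to each other were close in the 2 richest libraries. For each gene the excess over the median of the other 9 was divided by the Bpifa2 excess of the same library. A minimum of 20 reads in NT NC 2, set after values had been seen, left 33 of the 97 genes. Between NT NC 3 and T NDE 3 the ratio of these proportions had a median of 0.814 and a range of 0.575 to 1.78, so among these 33 genes 0 differed by over 2 times. Scgb1b27 (1.78) and its partner Scgb2b27 (1.76) were the highest, and Bpifa2 is 1 by construction. Over all 97 genes the median was 0.738 and the range 0.0859 to 2.52, with 10 genes below 1/2 and 1, BC107364 (6 and 11 reads), above 2. Most of the 10 had few reads, but Mup5 had 1186 and 266 reads and a ratio of 0.308, and Krt23 had 109 and 35 reads and a ratio of 0.441.

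NT NC 2 was different in a named subset. Against T NDE 3 the ratio had a median of 1.32 and a range of 0.702 to 9.36. Of the 33 genes 10 lay above 2 and 0 lay below 1/2. The minimum of reads was set on NT NC 2 itself and left out genes scarce there, so the lack of low ratios is no result. Among the genes left out, Mup5 (5 reads in NT NC 2) had a ratio of 0.0971 and Prss8 (2 reads) 0.415. Others left out lay above 2, such as Klk1b11 (8 reads) at 8.01. Among the 33 genes Klk1 led with 9.36. Its excess per 100 of Bpifa2 excess was 0.437 in T NDE 3, 0.447 in NT NC 3 and 4.09 in NT NC 2. The exact Poisson 95% interval of the last was 3.82 to 4.37. Next were Tfcp2l1 (5.2), Arg1 (5.14), Cyp2f2 (3.71), Dcpp3 (3.55), the mitochondrial creatine kinase Ckmt1 (2.99), Dcpp2 (2.72), Dcpp1 (2.36), Krt18 (2.13) and the mucosal chemokine Ccl28 (2.03). The Dcpp1 excess per 100 of Bpifa2 was 2.79, 3.28 and 6.58 (6.26 to 6.92 in NT NC 2), so the last lay above the first 2 beyond counting error. Chia1, Dnase1, Car6, Pip, Cst10, Smr3a and Crisp1 stayed within 2 times between these libraries. NT NC 2 thus held more of Klk1, Tfcp2l1 and the Dcpp genes per unit of Bpifa2, and each library is 1 sample, so no spread between samples can be put beside the ratio.

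**Figure D3:**
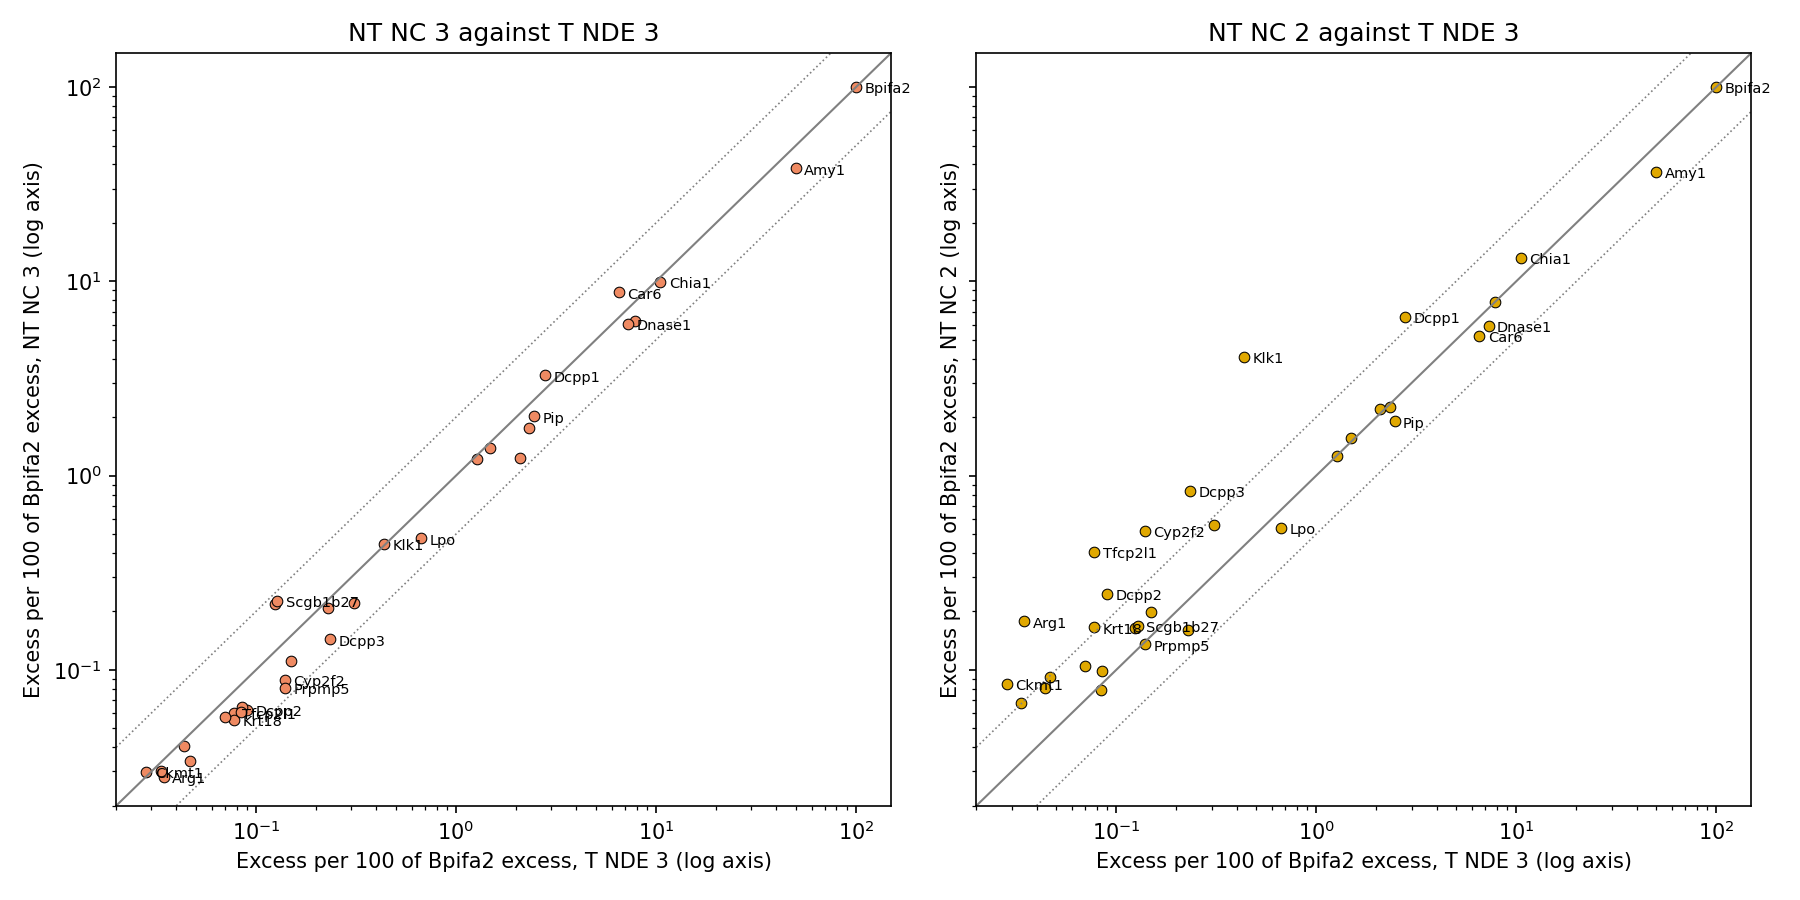
Excess of each of 33 genes per 100 of Bpifa2 excess in NT NC 3 (left) and NT NC 2 (right) against T NDE 3, on log axes; the solid line is equality and the dotted lines are 2 times above and below it. All genes lie between the dotted lines on the left, and 10 lie above them on the right, with Klk1 the farthest.

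Other digestive and exocrine glands were not read in the 3 libraries at matching levels. Of 17 pancreatic acinar genes 13 had 0 reads in all 12 libraries, among them Cpa1, Pnlip, Cel and Amy2b, and the list summed to 1.31, 1.13 and 1.00 CPM, within the 0.920 to 1.78 CPM of the other 9. Amy2a1, a pancreatic amylase, had 2, 1 and 0 reads. Of 13 lacrimal and Harderian genes 11 had 0 reads throughout, and Mup5 alone of the list followed. The list leaves out relatives of its Esp and secretoglobin members that did follow. These were Scgb1b27, Scgb2b27 and Esp18, the last with 16 reads in T NDE 3 (next 0.0832 CPM in NT NC 2). The 6 milk genes summed to 3.69, 1.18 and 0.458 CPM against 0.327 to 0.758 CPM, so the 2 richest libraries lay above the other 9. Of these genes Csn1s1, Csn1s2a and Wap had 0 reads, and Csn3, with 62, 17 and 2 reads, followed in the 2 richest libraries. In the Bpif family of 15 genes, Bpifa1, Bpifa3 and Bpifa5, which belong to airways and other surfaces, had 0 reads in every library, and besides Bpifa2 only Bpifb4 followed (16, 2 and 1 reads). A count of 0 in a library allows up to 3 reads.

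Muscle, skin, nerve and endocrine lists did not rise with Bpifa2. Skeletal muscle genes summed to 80.9, 70.7 and 77.4 CPM against 60.9 to 85.5 CPM, and 0 of 25 followed. Keratinised epithelium was at 5.18, 6.37 and 8.11 CPM against 4.13 to 8.51 CPM, and Krt16, Krtdap and Flg were at 0. Schwann cell and neuron genes summed to 149, 149 and 135 CPM against 136 to 154 CPM, NT NC 2 being just below that range, and of the 15 genes Sox10 and Cdh19 followed. Melanocyte genes were at 1.59, 1.33 and 1.498 CPM against 0.817 to 2.73 CPM, with Tyrp1 and Dct at 1 read or fewer in the 3 libraries. Thyroid and parathyroid genes (2.19, 1.97 and 2.21 CPM against 1.16 to 2.70 CPM) and thymus genes (60.0, 60.9 and 69.1 CPM against 54.2 to 70.8 CPM) lay within the range as well.

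Immune genes linked to mucosal glands did not follow as a list. Igha, the IgA heavy chain, was at 294, 37.4 and 80.4 CPM against 34.8 to 958 CPM, and Jchain at 404, 223 and 662 CPM against 165 to 528 CPM. Pigr, the epithelial receptor that carries IgA into saliva, was at 18.2, 18.5 and 2.66 CPM against 0.738 to 1.90 CPM and followed in the 2 richest libraries. The summed lymph node markers were at 4792, 5056 and 5369 CPM against 5047 to 5553 CPM, so T NDE 3 was below all of the other 9.

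Fat and blood transcripts were raised in T NDE 3 and not in the other 2 high libraries. Adipocyte genes summed to 184 CPM in T NDE 3, and to 56.6 and 58.2 CPM in NT NC 3 and NT NC 2, against 53.0 to 111 CPM in the other 9. Of the 14 genes, 11 were higher in T NDE 3 than in any of the other 9, and 0 in NT NC 3 or NT NC 2. Car3, a carbonic anhydrase of fat and muscle, was at 43.9, 4.29 and 3.25 CPM against 0.271 to 17.4 CPM, and Fabp4, the fatty acid carrier of fat cells, at 41.9, 10.3 and 9.16 CPM against 8.19 to 19.6 CPM. Adipoq, adiponectin, had 96, 17 and 9 reads, and Cidec, a lipid droplet protein, 135, 9 and 7 reads. Ucp1, which marks brown fat, was at 0 in all 3.

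Erythroid genes summed to 229 CPM in T NDE 3 and to 26.5 and 28.9 CPM in NT NC 3 and NT NC 2, against 21.1 to 122 CPM. The haemoglobin gene Hba-a1 was at 69.0 CPM in T NDE 3, and the next library was NT NDE 3, a low-Bpifa2 library, at 33.2 CPM. Ccl19, a chemokine of lymph node stroma, was at 44.2, 1.68 and 1.29 CPM against 0.398 to 9.73 CPM. Fat, blood and Ccl19 therefore did not move with Bpifa2 over the libraries.

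To see how far T NDE 3 stood apart beyond saliva, genes were counted that lay in 1 library above 2 times the highest of the other 11, with at least 10 reads. There were 135 such genes in T NDE 3 (0.790% of 17080 with enough reads), 15 in NT NC 3, 15 in NT NC 2 and 14 to 34 in each of the other 9. Of the 135, 69 followed Bpifa2 and 66 did not. The latter included the lipid-synthesis genes Me1 (18.7 CPM, next 5.80 in NT NDE 3), Gpd1 (17.1, next 5.63), Thrsp (13.3, next 4.54) and Pcx (19.8, next 9.82). For Gpd1, Thrsp and Pcx the next library was NT NC 3, the other library rich in Bpifa2. Not following means only that the rule of 2 times was not met, so such genes are not shown to be apart from the salivary ones. The antibody segment Ighv1-7 was at 122 CPM, next 12.2 in NT NC 2. In NT NC 3, 3 of the 15 followed Bpifa2 (Prh1, Hapln4 and Cck), and the highest of the rest was the xenobiotic oxidase gene Cyp1a1 at 10.7 CPM (next 3.64). In NT NC 2, 0 of 15 followed and 7 were antigen receptor segments. These genes were chosen for their excess, so the values are descriptions.

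Within the 9 low libraries the levels of several salivary transcripts varied with that of Bpifa2. The 6 genes compared were picked after their values had been seen, and 5 of them are also the genes most like Bpifa2 over all 12 libraries, so the correlations are descriptions with no test. All were computed on log2(CPM + 0.5). Over the 9 libraries Amy1 and Bpifa2 had Pearson r = 0.987 and Spearman rho = 0.983. Without T NC 3 and T NDE 2, the libraries farthest from the median of Bpifa2, r was 0.989 over 7 libraries. The other acinar proteins were lower: r was 0.918 for Chia1, 0.912 for Dcpp1, 0.886 for Dnase1 and 0.876 for Car6, and 0.868, 0.847, 0.795 and 0.747 without those libraries. Klk1 gave r = 0.453 and rho = 0.250, and r = 0.0732 without them. The labels name no batch, and the groups are too small for a relation within each.

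Proportions to Bpifa2 were also read in the low libraries. Pooled over the 9, there were 59.5 Amy1 reads per 100 Bpifa2 reads (exact Poisson 95% interval 56.7 to 62.4), against 50.2, 38.2 and 37.1 in T NDE 3, NT NC 3 and NT NC 2. The pooled proportion was thus above all 3, but the interval leaves out the spread between libraries. In single libraries of the 9 the Amy1 proportion ran from 46.9 to 70.1, a range that contains T NDE 3. For 2310057J18Rik it was 8.12 (7.11 to 9.23) against 7.86, 6.24 and 7.88, and for Chia1 11.7 (10.5 to 13.0) against 10.5, 9.92 and 13.3. Klk1 stood at 26.9 reads per 100 (25.01 to 28.8) against 0.455, 0.470 and 4.50, and Lpo at 5.02 (4.23 to 5.91) against 0.673, 0.479 and 0.610. Unlike the excess used earlier, these proportions have no median subtracted. In the 9 libraries Klk1 lay at 2.82 to 6.40 CPM and Lpo at 0.674 to 1.16 CPM, while Bpifa2 ran from 6.66 to 38.1 CPM. Whether their reads there share a source with Bpifa2 was not tested. Over the single libraries of the 9, 2310057J18Rik stayed between 7.29 and 9.19 per 100, whereas Klk1 ran from 16.8 to 77.2 and Lpo from 2.02 to 13.8. How Bpifa2 reads came to be in every library was not tested.

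**Figure D4:**
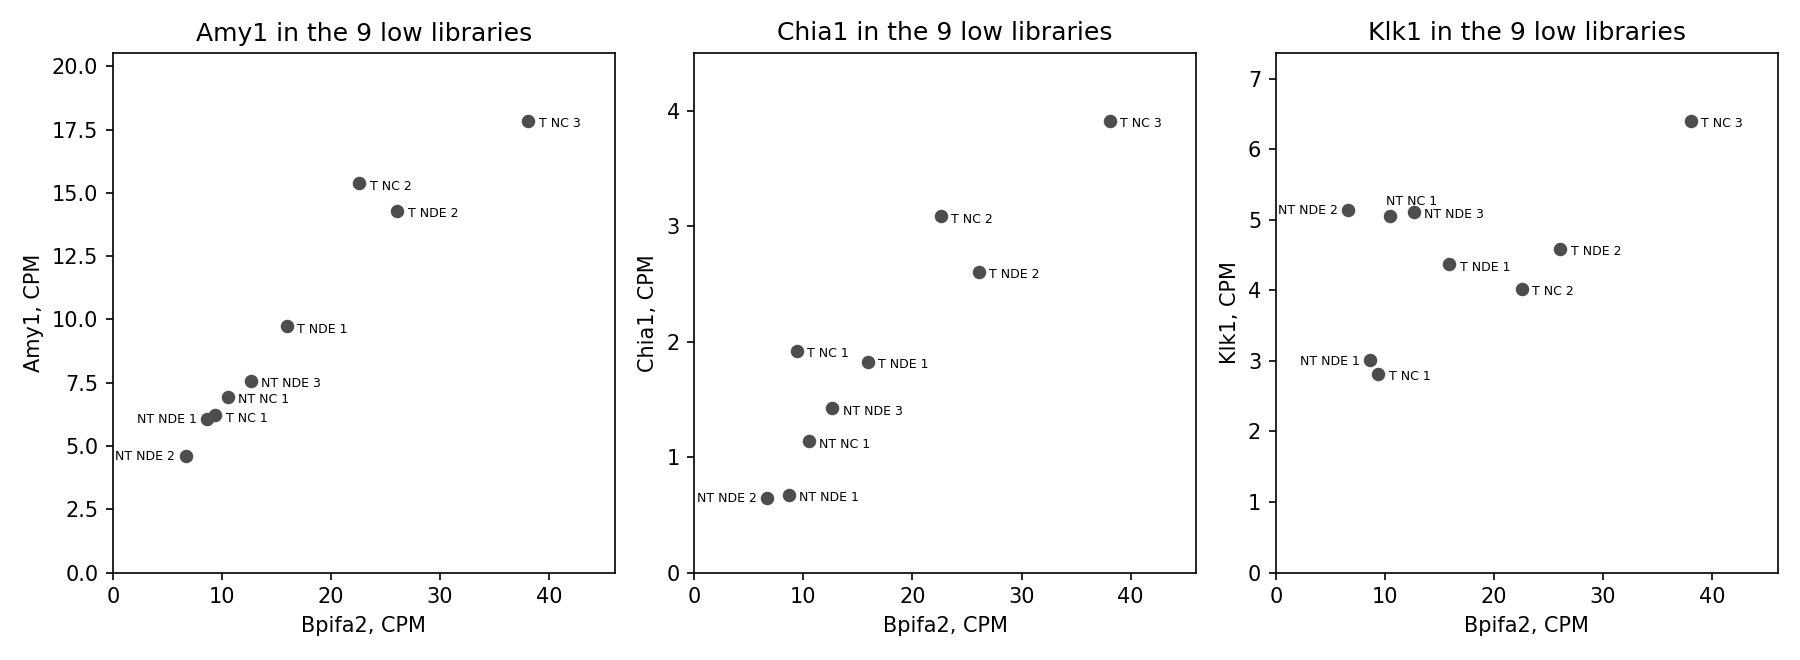
Amy1, Chia1 and Klk1 against Bpifa2 in the 9 libraries below 100 CPM of Bpifa2, in CPM on linear axes, 1 point per library. Amy1 (r = 0.987) and Chia1 (r = 0.918) climb with Bpifa2, and Klk1 (r = 0.453) is scattered. Each r was computed on log2(CPM + 0.5), not on the plotted scale.

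The 4 contrasts of the study and their interaction each contain at least 1 of the 3 libraries, and which group holds them fixes the sign that the genes take. In edgeR's quasi-likelihood fit of 17301 genes, calls with an adjusted p under 0.05 numbered 0 for T NC against NT NC, 0 for T NDE against T NC, 0 for NT NDE against NT NC, 1 for T NDE against NT NDE (0.00578% of genes tested) and 0 for the interaction of tumour and nerve inhibition. The smallest adjusted p was 0.286, 0.149, 0.0788, 0.0133 and 0.321, and an unadjusted p under 0.05 was found for 1350, 1008, 1796, 641 and 1230 genes. The 1 call, Gm4617, fell by 0.98 on the log2 scale (SE 0.12, edgeR adjusted p = 0.0133) and does not follow Bpifa2. That call was lost with Bpifa2 as a covariate, and without NT NDE 3, T NDE 1 or T NDE 2 (0 calls each). Without the 3 high libraries the counts of calls were 7, 1, 33, 28 and 3, of which 0 were genes that follow Bpifa2. Of the 97 genes 39 had enough counts to be tested, a filter they passed through the libraries where they are high, and 0 passed the threshold in any contrast. Their median log2 fold changes were -7.28, 8.22, -8.23, 8.89 and 17.19, beside medians over all genes tested of -0.01, 0.01, 0.00, 0.00 and 0.01.

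Bpifa2 itself had log2 fold changes of -8.24 (SE 3.49) for T NC against NT NC, 8.57 (SE 3.53) for T NDE against T NC, -9.56 (SE 3.69) for NT NDE against NT NC and 9.88 (SE 3.74) for T NDE against NT NDE. The interaction was 18.13 (SE 5.11). These values describe the genes that made the split and are no test of the study groups. Without the 3 libraries, which leaves NT NC with 1 library that is assumed to vary like the rest, the 5 values were 1.16, -0.14, -0.16, 1.18 and 0.02. Klk1 moved from -3.48 for T NC against NT NC and 6.77 for the interaction to -0.19 and 0.22 without the 3 libraries.

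DESeq2, run as an alternative, called genes that follow Bpifa2 in every contrast. It called 46 genes for T NC against NT NC (0.246% of those with an adjusted p), 48 for T NDE against T NC (0.249%), 135 for NT NDE against NT NC (0.770%), 24 for T NDE against NT NDE (0.118%) and 52 for the interaction (0.242%). Of these, 10, 11, 18, 17 and 26 were genes that follow Bpifa2 in all 3 libraries, and the other 174 that follow in the 2 richest alone added 0. Since these genes were chosen for being high in libraries that the contrasts contain, the counts describe where such genes appear among the calls and support nothing about the groups. Bpifa2, Chia1 and Dcpp1 were among the calls in all 5 contrasts, Cst10 in 4 and Klk1 in the interaction alone. Amy1 was among the 15 of 97 genes to which DESeq2 gave no p-value, so its absence from the calls is no result.

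**Figure D5:**
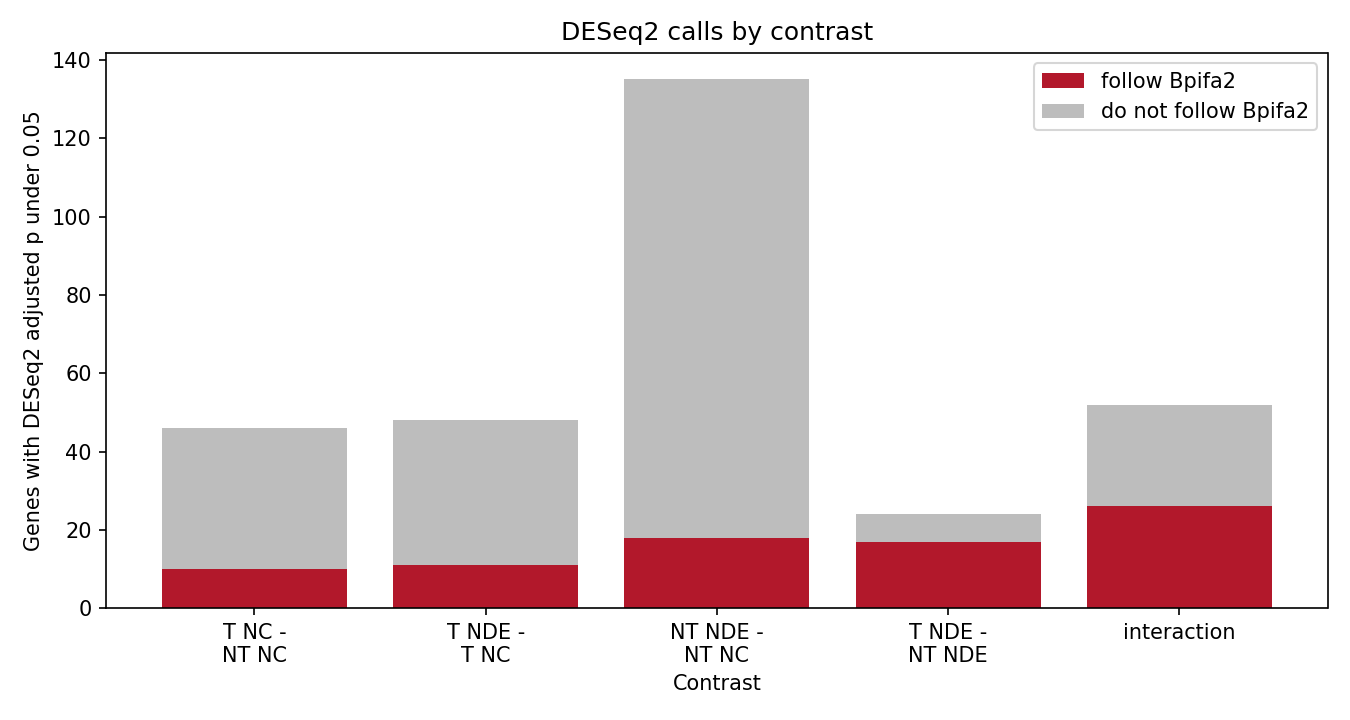
Number of genes with a DESeq2 adjusted p under 0.05 in each contrast of the study, split into genes that follow Bpifa2 (red) and others (grey). Genes that follow Bpifa2 are 17 of 24 calls for T NDE against NT NDE and 18 of 135 for NT NDE against NT NC.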

How the data were processed

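Gene-level read counts of 12 mouse lymph node libraries were used, 3 for each of 4 groups. Trizol was used to extract total RNA for standard Illumina mRNA libraries, per the labels' protocols. The values deposited by the authors are whole-number counts, not normalized; per the submitters' processing notes HISAT2 2.0 and mm10 were used. The sources used here do not state the read counter, annotation, strand setting or treatment of reads with several positions. Symbols were found for 55141 of 55487 IDs, and IDs without one took at most 0.0548% of a library. Gene positions and exon lengths are from GENCODE M21.

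CPM are raw counts per 1000000 counts of the library, without TMM factors. Excess is CPM minus the median of the other 9 libraries. Intervals are 95% (Wilson for shares, exact Poisson for counts) and cover counting error only; a count of 0 allows up to 3 reads. Contrasts were fitted in R 4.3.3 with edgeR 4.0.16 (TMM, filterByExpr by group, robust quasi-likelihood, 1 mean per group over 12 libraries) and adjusted by the Benjamini-Hochberg method at 0.05; tests are two-sided. DESeq2 1.42.0 was an alternative. Other alternatives were size factors, filters, left-out libraries, Bpifa2 as a covariate, a replicate block, and the fold and read limits for following Bpifa2. The edgeR script was tested on simulated data.

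Genes named are the 30 with the highest mean CPM among those that follow Bpifa2 in all 3 libraries, the 10 whose log2(CPM + 0.5) correlated best with Bpifa2 over 12 libraries (Amy1, Chia1, Dnase1, Dcpp1, Car6, Cst10, Crisp1, Smr3a, Pip and Dcpp3), and listed markers that follow or lead their list. Members and lists were chosen with earlier results of these data known. The relations within the 9 libraries, the 20-read minimum, the pooled proportions, the count of genes that fell, the promoter motif and further genes named beyond this rule were chosen after values were seen. No batch is named in the labels. A listed gene is not reported here. The p-values measure the spread between the libraries of a group.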

Additional observations from a re-analysis of the deposited data

How the results depend on the processing

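The counts of 97 and 271 genes that follow Bpifa2 stayed within 1.5 times under each alternative tried: 118 and 340 at 1.5 times the highest other library, 70 and 194 at 4 times, 80 and 219 with 20 reads, 120 and 381 with 1 read, 97 and 277 with TMM or DESeq2 size factors, and 97 to 104 and 272 to 280 when 1 of the other 9 libraries was left out. Counts of edgeR calls in the 5 contrasts, in the order of the report (0, 0, 0, 1 and 0), moved to 46, 48, 135, 24 and 52 with DESeq2, to 4, 12, 43, 1 and 1 with no filter, and to 7, 1, 33, 28 and 3 without the 3 high libraries, where NT NC keeps 1 library. Without the 2 richest, T NDE against NT NDE gave 4 calls, and with Bpifa2 as a covariate 0. Leaving out 1 library gave 0 to 3, 0 to 1, 0 to 7, 0 to 4 and 0 to 2 calls, of which 0 followed Bpifa2. Without T NDE replicate 3 there were 3, 0, 3, 4 and 0 calls, and 7 for NT NDE against NT NC without T NC replicate 3. Size factors of DESeq2 in edgeR, or leaving out the genes that follow Bpifa2, changed none of the 5 counts. The cause was not tested. With the replicate number as a block, the interaction gave 1 call, NT NDE against NT NC 3, and T NDE against NT NDE 3, and the pseudogene Gm5154 was the 1 following gene in each. Same-numbered libraries correlated at -0.133 to 0.517 (3 of 18 pairs above 0.1), and 4 of 12 libraries correlated best with their own number, so the number is not taken to pair them. TMM scaling moved the parotid list from 4.25% to 4.399% in T NDE replicate 3 and from 3.04% to 3.11% in NT NC replicate 3. NT NC replicate 2 was not shallow; with Bpifa2 at 997 CPM it held few salivary reads, and 33 of 97 genes reached the 20-read minimum there.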
